A study of Mus musculus with 12 samples.

Results

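The 10 granule genes of the neutrophil lineage were followed through 12 RNA sequencing libraries of mouse bone marrow cells. They were chosen by symbol as the primary granule genes Mpo, Elane, Prtn3 and Ctsg, the secondary granule genes Ngp, Camp, Ltf and Lcn2, and the pair S100a8 and S100a9. All 10 were found among the 24035 genes of the count files and all 10 passed the filter on low counts, which left 15163 genes. The study set freshly sorted marrow cells beside cultured stroma, with 3 libraries in each of 4 groups, all of strain C57BL/6J, and the ages of the mice are not given in the sources used here. GFPneg cells were sorted fresh from marrow as negative for CD45 (a blood cell antigen), Ter119 (red cell lineage), CD31 (endothelium) and the Scf-GFP reporter. GFPpos cells went through the same sort but were positive for Scf-GFP, a green fluorescent reporter of stem cell factor, the product of Kitl. The culture named control was stroma transduced with a control vector, and rMSC (revitalized mesenchymal stromal cells) was stroma transduced with Klf7, Ostf1, Xbp1, Irf3 and Irf7. Per the growth protocol, cultures were started from Scf-GFP positive sorted cells and kept with 20% serum and 10 ng/ml basic FGF, so both culture groups share the vector step, the serum and the growth factor. Nothing in the labels tells whether replicates were separate animals or separate cultures, so p-values cover the spread between libraries alone, which may be technical.

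Neutrophils fill their granules in waves as they mature in the marrow. Promyelocytes make the primary (azurophil) granules, which hold myeloperoxidase, encoded by Mpo, and the serine proteases neutrophil elastase (Elane), proteinase 3 (Prtn3) and cathepsin G (Ctsg). Later stages, the myelocytes and metamyelocytes, make secondary granules with lactoferrin (Ltf), the cathelicidin precursor (Camp), neutrophilic granule protein (Ngp) and lipocalin 2 (Lcn2), an iron carrier trap that other cells also make in inflammation. S100a8 and S100a9 encode the calcium-binding subunits of calprotectin, an abundant cytosolic protein of neutrophils. The transcription factors PU.1 (gene Spi1), MYB and the C/EBP family are known regulators of these waves.

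The upstream sequences of the 4 primary granule genes and of 2 secondary granule genes are shown because the letters of 2 of these factors' motifs were unevenly spread over the member classes. They are the RefSeq promoter windows of GRCm38.p6, which start 250 bases before the RefSeq gene start, printed 5′ to 3′ on the gene's own strand and ended at the first base of the window that an exon of the gene covers in GENCODE M21. For Prtn3 this is not the first exon of the gene model, which begins further upstream. Capitals mark the PU.1 motif AGGAAGT. In the same way they mark the C/EBP motif, spelled TTGCNNAA, and the letters TATAAA, with reverse complements included in each case.
Mpo, chr11:87793534-87793580, plus strand: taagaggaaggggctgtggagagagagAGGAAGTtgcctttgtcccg
Elane, chr10:79886062-79886246, plus strand: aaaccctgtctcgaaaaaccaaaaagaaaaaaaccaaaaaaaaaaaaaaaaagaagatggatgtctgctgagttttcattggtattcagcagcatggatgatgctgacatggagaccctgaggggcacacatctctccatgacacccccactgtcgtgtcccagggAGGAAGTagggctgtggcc
Prtn3, chr10:79879417-79879613, plus strand: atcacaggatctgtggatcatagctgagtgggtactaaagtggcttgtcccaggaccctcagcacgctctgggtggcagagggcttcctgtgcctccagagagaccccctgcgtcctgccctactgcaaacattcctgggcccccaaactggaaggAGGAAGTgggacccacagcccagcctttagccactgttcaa
Ctsg, chr14:56102575-56102824, minus strand: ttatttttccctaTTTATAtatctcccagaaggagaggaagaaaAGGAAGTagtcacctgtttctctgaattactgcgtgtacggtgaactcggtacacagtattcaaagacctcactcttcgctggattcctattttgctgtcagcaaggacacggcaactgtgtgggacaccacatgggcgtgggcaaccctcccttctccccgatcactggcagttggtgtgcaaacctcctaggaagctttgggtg
Ngp, chr9:110419558-110419746, plus strand: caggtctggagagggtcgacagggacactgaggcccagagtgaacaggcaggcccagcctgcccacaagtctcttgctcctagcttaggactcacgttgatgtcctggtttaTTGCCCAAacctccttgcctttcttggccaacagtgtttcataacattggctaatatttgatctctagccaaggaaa
Ltf, chr9:111019042-111019270, plus strand: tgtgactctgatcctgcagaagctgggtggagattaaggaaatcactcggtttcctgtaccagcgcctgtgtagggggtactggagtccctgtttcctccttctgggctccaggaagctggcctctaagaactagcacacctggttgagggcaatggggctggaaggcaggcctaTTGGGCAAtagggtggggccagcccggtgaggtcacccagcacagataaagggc
Over the full windows of 250 bases, searched on both strands, AGGAAGT was present in all 4 primary granule genes and in S100a8, and in 7.69% of the 32851 promoters of the table. TTGCNNAA was present in Ngp, Ltf, Lcn2 and S100a9 and in 0 of the 4 primary granule genes, against 9.56% of all promoters. The MYB motif CAACGG began 51 bases before the RefSeq start in Elane and 56 bases before it in Prtn3, in bases that GENCODE counts partly or wholly as exon, and was held by 4.05% of all promoters. TATAAA began 30 bases before the RefSeq start in S100a8. In Ctsg only its reverse complement was found, 237 bases before the start. TATAAA on either strand was found in 12.4% of all promoters. No motif overlapped another in these windows. The motifs were chosen after these promoter sequences were seen, and a match of letters does not show that a factor binds there.

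Library totals ran from 60507051 to 85353566 counts, and 13639 to 15461 genes were detected in each. Low counts were even numbers in 62.07 to 71.32% of cases for counts of 1 to 19 against 49.75 to 53.64% for counts over 1000, so low counts here do not stand for single independent molecules. The sort labels could be set beside marker lists. Kitl, the gene of the reporter, had 0.5317 ± 0.9209 CPM (SD, n = 3) in GFPneg and 367 ± 98.66 in GFPpos. Pecam1, which encodes CD31, had 1.331 ± 1.166 CPM in GFPneg and 10.61 ± 2.12 in GFPpos, although both were sorted as CD31 negative. Ptprc, which encodes CD45, was present in GFPneg (15.84 ± 3.227 CPM, SD, n = 3) and in GFPpos (13.66 ± 11.83 CPM) although both were sorted as CD45 negative, and was at 0 in control. The 6 stroma markers summed to 116000 to 141200 CPM in GFPpos and to 0.2984 to 40.76 CPM in GFPneg, whose source is labelled as stromal, while the 6 erythroid markers summed to 4648 to 5023 CPM in GFPneg. CPM are counts scaled by the TMM-adjusted library size in the usual way, and a floor of 3 counts stood at 0.03581 to 0.05469 CPM per library. GFPpos replicate 1 stood apart from the other GFPpos libraries in the granule genes. Most fold changes that rest on it are given with and without it. Pooled ratios of counts and correlations over the fresh libraries are given only with it.

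The granule genes together took 0.1584, 0.08693 and 0.1296% of the counts in GFPneg replicates 1, 2 and 3, and 0.4034, 0.1263 and 0.07887% in GFPpos. In control they took under 0.001% of each library. Scaled per kilobase of exon (RPKM), S100a9 was the most abundant member of both fresh groups, with 392.8 ± 100.8 RPKM in GFPneg and 798 ± 578.2 in GFPpos. S100a8 (311.7 ± 79.05 and 608.1 ± 442 RPKM), Ngp (268.5 ± 62.8 and 465.6 ± 348.5) and Camp (111.3 ± 30.43 and 248.5 ± 148.8) followed in both groups. Ctsg was the lowest of the 10, with 1.491 ± 1.386 RPKM in GFPneg and 8.727 ± 15 in GFPpos. In GFPneg the ranges of neighbours in this order did not overlap for Ngp over Camp, Camp over Ltf and Ltf over Lcn2, and overlapped for all other neighbours. In GFPpos every pair of neighbours overlapped. In the bulk libraries fewer cells of a type and less RNA per cell cannot be told apart.

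**Figure D1:**
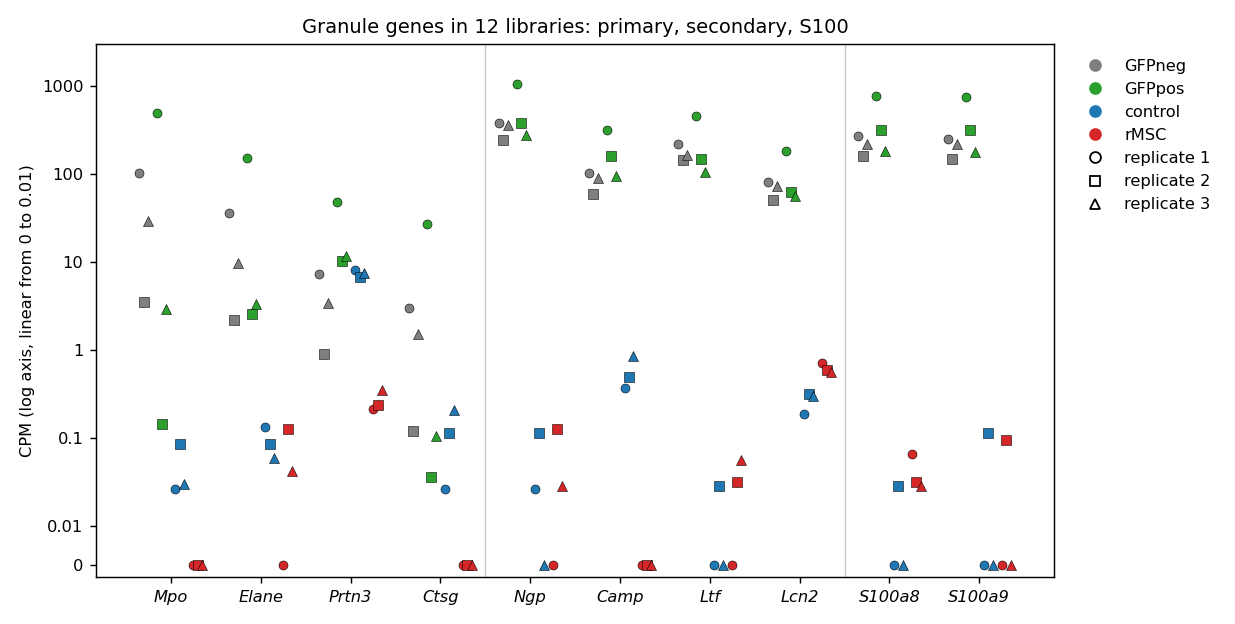
Level of each granule gene in CPM (log axis, linear from 0 to 0.01) in the 12 libraries, coloured by group and with one marker shape per replicate number. The fresh libraries lie above the cultures for most members, Prtn3 has 6.74 to 8.13 CPM in control, and GFPpos replicate 1 is the highest point for every gene.

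Mpo, the peroxidase that makes hypochlorous acid, had 102.2, 3.533 and 29.19 CPM in GFPneg replicates 1, 2 and 3. In GFPpos it had 496.9, 0.1458 and 2.938 CPM. The highest library of each fresh group was replicate 1, and the other GFPpos libraries lay below all 3 GFPneg libraries. Elane, the elastase that also cleaves bacterial proteins, had 36.13, 2.172 and 9.684 CPM in GFPneg and 151.3, 2.589 and 3.309 CPM in GFPpos. Ctsg, a protease with chymotrypsin-like activity, had 2.983, 0.1194 and 1.517 CPM in GFPneg and 26.9, 0.03646 and 0.1062 CPM in GFPpos, where replicates 2 and 3 held 2 and 6 counts. The groups overlapped for both proteases, with GFPpos replicate 1 above every other library. Prtn3, the protease known as the autoantigen of granulomatosis with polyangiitis, behaved otherwise, with 7.326, 0.9072 and 3.431 CPM in GFPneg and 47.48, 10.14 and 11.77 CPM in GFPpos. All 3 GFPpos libraries lay above all 3 GFPneg libraries for Prtn3.

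The spread within GFPpos was widest for these primary granule genes. Replicate 1 exceeded the higher of the other GFPpos libraries 253-fold for Ctsg, 169-fold for Mpo and 45.7-fold for Elane, and 4.03-fold for Prtn3. For the secondary granule genes and the S100 pair the same ratio was 1.98 to 3.05. In GFPneg the highest library exceeded the lowest 28.9-fold for Mpo, 25-fold for Ctsg, 16.6-fold for Elane and 8.08-fold for Prtn3, and 1.53 to 1.76-fold for the other 6 members.

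Ngp, a cystatin-like protein of secondary granules, had 382.7, 240.4 and 361.2 CPM in GFPneg and 1057, 374.9 and 274.7 CPM in GFPpos. Ltf, the iron-binding lactoferrin, had 217.7, 142.7 and 165.8 CPM in GFPneg and 451.6, 148.3 and 104.1 CPM in GFPpos. Both genes were highest in GFPpos replicate 1, and the other GFPpos libraries fell among or below the GFPneg libraries. Camp, whose product is cut to an antimicrobial peptide, had 103.4, 58.68 and 90.96 CPM in GFPneg and 313.2, 158.1 and 93.75 CPM in GFPpos. Lcn2, which binds bacterial iron carriers, had 81.39, 51.11 and 73.72 CPM in GFPneg and 184.8, 62.95 and 55.67 CPM in GFPpos. The groups overlapped for all 4 secondary granule genes, for Camp only by GFPpos replicate 3.

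S100a8 had 270.1, 160.5 and 218.4 CPM in GFPneg and 768, 314.6 and 183.4 CPM in GFPpos. S100a9 had 250.5, 147.4 and 217.3 CPM in GFPneg and 755.2, 318.7 and 175.8 CPM in GFPpos. The subunits of calprotectin kept nearly the same ratio of counts, with 1.005 to 1.089 counts of S100a8 per count of S100a9 in GFPneg and 0.987 to 1.043 in GFPpos. GFPpos replicates 1 and 2 lay above all GFPneg libraries for both genes and replicate 3 lay among them.

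The comparison of GFPpos with GFPneg asked how the reporter-positive cells differed from the remaining sorted cells. By edgeR's quasi-likelihood test with Benjamini-Hochberg adjustment over all genes tested, Prtn3 (log2 fold change 2.58 ± 0.73, SE, adjusted p = 0.00741) and Camp (1.16 ± 0.42, adjusted p = 0.0312) were higher in GFPpos. So 2 of the 10 members were called, both higher, while 77% of all genes tested were called in this comparison, 40.5% as higher and 36.5% as lower. The members' share thus lay below the background. Their median log2 fold change was 1.09 against 0.08 over all genes tested. Prtn3 was the 1 member whose groups did not overlap, and 37.5% of all genes had GFPpos above GFPneg without overlap. In GENCODE M21 the gene model of Prtn3 overlaps exons of Plppr3, as described below. Whether the Prtn3 counts hold reads of that gene was not tested. S100a8 (0.96 ± 0.42, adjusted p = 0.0549, and 0.0434 with the replicate number as a block) and S100a9 (1.02 ± 0.48, adjusted p = 0.0752) missed the threshold. Ngp (0.79 ± 0.47, adjusted p = 0.142), Lcn2 (0.56 ± 0.39, adjusted p = 0.208) and Ltf (0.42 ± 0.44, adjusted p = 0.405) did not pass either. The estimates of Mpo (1.89 ± 1.93, adjusted p = 0.393), Ctsg (2.55 ± 1.95, adjusted p = 0.258) and Elane (1.72 ± 1.35, adjusted p = 0.266) had standard errors near or above their own size.

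The direction of Mpo, Ctsg and Elane in this comparison rested on GFPpos replicate 1. Without that library, edgeR's quasi-likelihood test with Benjamini-Hochberg adjustment called Mpo (log2 fold change -4.86, adjusted p = 0.0202), Ctsg (-4.39, adjusted p = 0.028) and Elane (-2.44, adjusted p = 0.0426) lower in GFPpos, and Prtn3 stayed higher. Camp did not pass without it (0.58, adjusted p = 0.123), and the estimates of Ngp, Ltf and Lcn2 changed sign. With replicate 1 of both fresh groups left out, Mpo stood at -3.41 (adjusted p = 0.0512), Ctsg at -3.48 (adjusted p = 0.0657) and Elane at -1.01 (adjusted p = 0.287) by the same test, and Prtn3 was the 1 member called. Camp also lost its call without GFPneg replicate 2 (adjusted p = 0.0957) or GFPneg replicate 3 (adjusted p = 0.0613), as the plot of fold changes with and without replicate 1 shows in part.

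**Figure D2:**
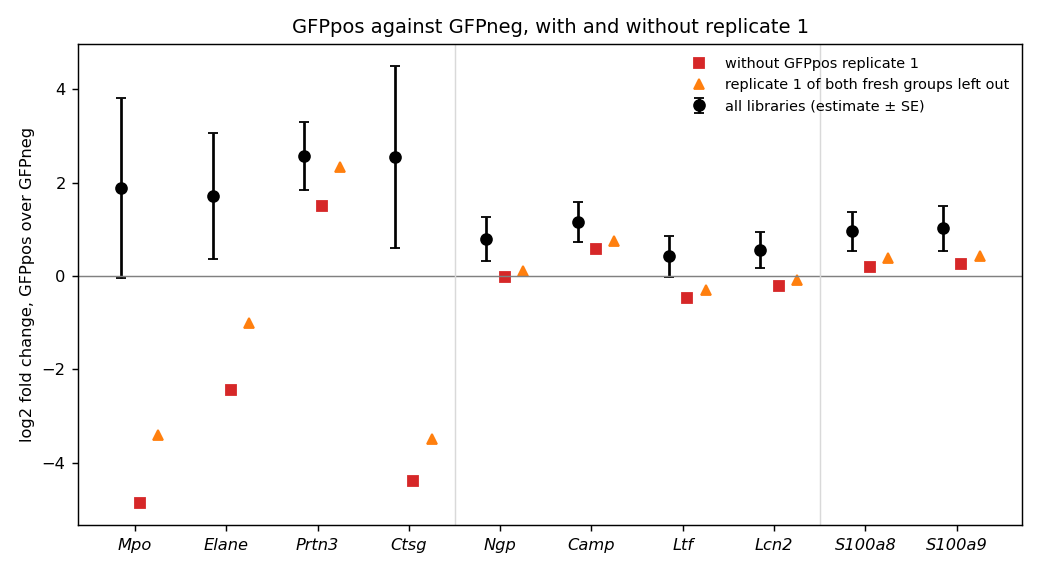
Log2 fold change of GFPpos over GFPneg for each member, as the estimate ± SE with all libraries (black), without GFPpos replicate 1 (red) and with replicate 1 of both fresh groups left out (orange). Without GFPpos replicate 1, Mpo, Elane and Ctsg go from above 0 to between -4.86 and -2.44, Ltf, Lcn2 and Ngp go to between -0.48 and -0.016, and Prtn3, Camp and the S100 pair stay above 0.

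Within the fresh libraries the primary granule genes varied against the other members, while the share of the S100 pair changed little. The primary genes held 4.958, 0.455 and 1.753% of the summed RPKM of the 10 members in GFPneg and 8.033, 0.5173 and 1.099% in GFPpos. The S100 pair held 58.22 to 64.29% and the secondary granule genes 33.74 to 39.52% in all 6 libraries. Per 100 counts of Ngp there were 26.72, 1.47 and 8.08 counts of Mpo in GFPneg and 46.99, 0.0389 and 1.069 in GFPpos. Counts of Mpo per count of Elane were 1.626 to 3.014 in GFPneg and 3.285, 0.05634 and 0.8877 in GFPpos, and counts of Prtn3 per count of Elane were 0.2028 to 0.4176 in GFPneg and 0.3139, 3.915 and 3.556 in GFPpos. GFPpos replicate 1 fell within the GFPneg range for the Prtn3 to Elane ratio, and the other GFPpos libraries lay above it.

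Other genes of neutrophils gave a second view of these libraries. The mature neutrophil genes, such as Retnlg, a resistin-like secreted protein, and Cxcr2, the chemokine receptor by which neutrophils leave the marrow, summed to 71.25, 45.98 and 26.98 CPM in GFPneg, against 264.5, 59.48 and 6.654 in GFPpos. Of the 10 that could be tested, 0 were called between GFPpos and GFPneg by edgeR's quasi-likelihood test (Retnlg 1.04 ± 1.18, adjusted p = 0.451, and Il1b, the inflammatory cytokine, 1.82 ± 1.11, adjusted p = 0.174). Over all genes tested 77% were called. GFPpos replicate 3, which kept 274.7 CPM of Ngp, had 1.451 CPM of Retnlg, 0.3893 of Cxcr2 and 0.05309 of Trem1, a receptor that amplifies inflammation. Per 100 counts of Ngp it held 0.5283 counts of Retnlg, against 2.767 to 8.666 in the other 5 fresh libraries. Ly6g, a defining neutrophil marker, was not found under that symbol in the files and is not analysed here.

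Of the 8 partners of primary granules, 5 were higher and 1 lower in GFPpos than in GFPneg. This share of called genes is near the 77% called over all genes tested. Cd63, a membrane protein of granules and lysosomes in many cell types, stood at 1030 ± 90.19 CPM against 8.424 ± 3.049 (log2 fold change 6.94 ± 0.25, adjusted p = 1.81e-09 by edgeR's quasi-likelihood test). Ctsc, the protease that activates the granule serine proteases, stood at 62.27 ± 14.98 against 6.116 ± 0.9196 CPM (3.35 ± 0.25, adjusted p = 3.81e-07), and Serpinb1a, an inhibitor of elastase, at 39.74 ± 4.037 against 8.097 ± 2.856 CPM. Ctsc was highest in GFPpos replicate 2 (78.93 CPM) and Serpinb1a in replicate 1 (43.97 CPM). In the control culture Cd63 and Serpinb1a were higher still, at 2614 ± 62.48 and 89.63 ± 5.835 CPM, and Ctsc was lower, at 1.455 ± 0.5403 CPM. Of the other 15 genes of secondary and tertiary granules, 4 were higher and 1 lower. Hp, haptoglobin, had 2922 ± 1719 against 15 ± 7.801 CPM (7.61 ± 0.54, adjusted p = 2.65e-07), and Slpi, a protease inhibitor, had 32.91 ± 8.551 against 3.984 ± 1.513 CPM (3.05 ± 0.40, adjusted p = 3.14e-05). Olfm4, olfactomedin 4 of a neutrophil subset, was the lower one, with 0.8912 ± 0.867 CPM in GFPneg and 0 counts in GFPpos.

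Of the 10 granulocyte regulators, 5 were higher and 2 lower in GFPpos, a share of called genes near the background of 77%. Cebpa, the C/EBP factor of early granulocyte commitment, had 68.02 ± 21.39 against 0.2132 ± 0.1046 CPM (log2 fold change 8.34 ± 0.36, adjusted p = 6.44e-09 by edgeR's quasi-likelihood test), and Irf8, which favours monocytes, had 25.38 ± 5.197 against 0.2722 ± 0.1897 CPM. Myb, the factor of blood progenitors, was lower, with 28.91 ± 8.567 against 104.9 ± 13.14 CPM (-1.86 ± 0.22, adjusted p = 1.39e-05). Cebpe, the factor of secondary granule genes, had 4.715, 1.385 and 1.823 CPM in GFPpos and 0.7401 to 1.477 in GFPneg and was not called (adjusted p = 0.165). Spi1 and Gfi1 were not called either (adjusted p = 0.0676 and 0.339 by the same test). Cebpa also had 50.63 ± 2.846 CPM in the control culture, where Spi1, Cebpe and Gfi1 were at 0. For the lists that follow, the background was 40.5% of all genes tested called higher in GFPpos and 36.5% called lower. All 9 tested members of the rest of the S100 family were higher in GFPpos. Among them were S100b, known from glia, at 57.26 ± 18.11 against 0.02387 ± 0.04135 CPM and S100a16 at 89.46 ± 16.91 against 0.231 ± 0.3374 CPM. Of the 6 tested receptors for S100 proteins and Lcn2, 5 were higher, with Tlr4, a receptor of calprotectin, at 38.04 ± 6.092 against 0.154 ± 0.1614 CPM and Slc22a17, a receptor of Lcn2, at 23.2 ± 5.947 against 0.009846 ± 0.01705 CPM. Of the 10 acute-phase and chemokine genes of stroma, 9 were higher and 1 lower, with Lbp, which presents endotoxin, at 598.3 ± 164.3 against 1.185 ± 0.5063 CPM.

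Markers of other cells moved between the fresh libraries as well. The 5 neutrophil markers in the files summed to 35.38 to 117 CPM in GFPneg, against 335.3, 312.6 and 14.28 in GFPpos. In GFPpos replicate 2 Mmp9, a gelatinase, gave 273.1 CPM of this sum, and without it the sums were 209.2, 39.54 and 5.892 CPM in GFPpos. The 6 pan-haematopoietic markers summed to 197 to 256.2 CPM in GFPneg, against 169 to 362.6 in GFPpos, and Ptprc had 26.37, 11.65 and 2.973 CPM in GFPpos. Monocyte and macrophage markers (5 in the files) summed to 1.877 to 3.22 CPM in GFPneg, against 40.92, 52.35 and 3.645 in GFPpos. The 6 megakaryocyte markers summed to 42.84 to 193 CPM in GFPneg, against 170.9, 2924 and 2586 in GFPpos, where replicate 1 was the lowest. The 6 erythroid markers summed to 759.6 to 1372 CPM in GFPpos. Cd79a, a B cell marker, had 9.38, 0.8386 and 0.1593 CPM in GFPpos and 0.5491 to 0.7459 in GFPneg. Epx and Prg3, defining genes of eosinophils, were at 0 in all 12 libraries. The part of such cells in the granule gene levels was not tested.

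**Figure D3:**
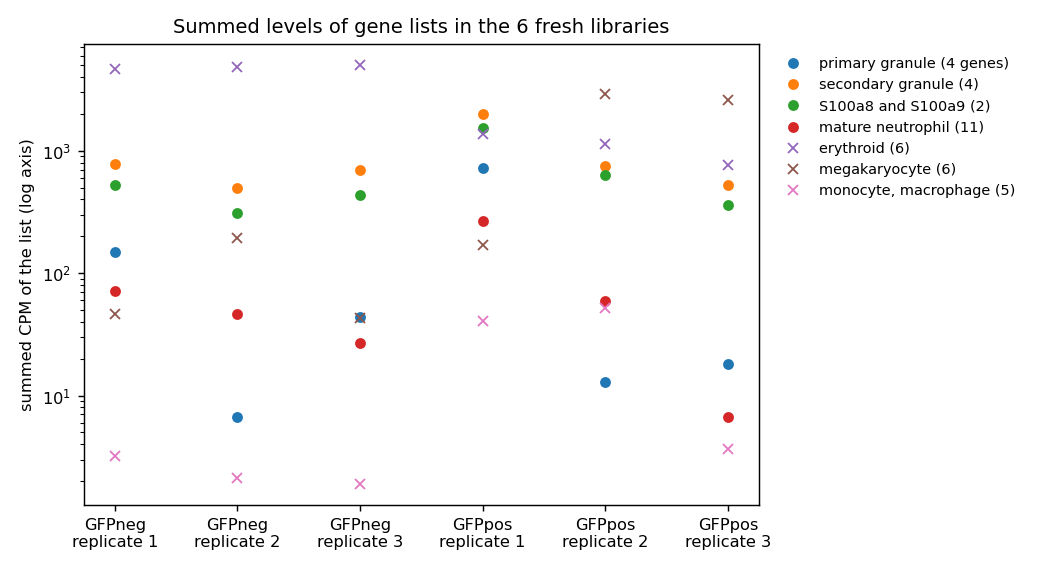
Summed CPM (log axis) of the granule gene classes, the mature neutrophil genes and 3 marker lists in the 6 fresh libraries. The primary granule sum ranges from 6.732 to 722.5 CPM, with the highest value in GFPpos replicate 1, while the mature neutrophil sum is lowest in GFPpos replicate 3.

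Across the 6 fresh libraries, 3 of each sort, Pearson's r of log2 CPM described how the members went together, with no test. GFPpos replicate 1, the highest library for every member, was not left out. S100a8 and S100a9 had r = 0.998, Elane and Ctsg 0.975, and Mpo and Ctsg 0.960. Prtn3 had r = 0.653 with Elane and 0.361 with Mpo but 0.909 with Camp. Among 10001 genes ranked, those most like the mean profile of the primary genes were Map4k2 (0.968), Igj (0.961), Itgb2l (0.959), Cd177 (0.941) and Dusp28 (0.934). Igj, the joining chain of antibodies made by plasma cells, had 256 CPM in GFPpos replicate 1 and 0.03646 and 0.991 CPM in the other GFPpos libraries, so a plasma cell gene was high in the same library. Cd177, a surface protein of neutrophils, had 92.11 CPM in that library and 26.32 to 42.93 CPM in the other 5 fresh libraries. For the profile of the secondary granule genes and the S100 pair the closest genes were Chil1 (0.989), Ceacam1 (0.973), Fmnl1 (0.971), Ncf4 (0.969), a subunit of the phagocyte oxidase, and Chil3 (0.967), a chitinase-like protein of myeloid cells. Map4k2 and Dusp28 spanned only 9.133 to 15.2 and 9.943 to 11.53 CPM.

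Control was set against GFPpos, from which it differs in culture, in the vector step and in RNA of other cells. The erythroid marker Slc4a1 had 249.7 ± 84.03 CPM in GFPpos and 0.02805 ± 0.02879 in control. These differences cannot be told apart in this comparison. Granule gene RNA was near or under the floor in the culture for most members, and 9 of the 10 were called lower by edgeR's quasi-likelihood test with Benjamini-Hochberg adjustment, against 35.9% of all genes tested called lower and 68.3% called in either direction. Their median log2 fold change was -10.41, against -0.04 over all genes. S100a8 had 0, 2 and 0 counts in control beside 62063, 17256 and 10366 in GFPpos, a pooled ratio of 49380 (95% counting interval 13670 to 407800). Ltf had 0, 2 and 0 counts, a ratio of 27810 (7699 to 229700), and S100a9 had 0, 8 and 0 counts, a ratio of 12170 (6178 to 28200). These values lay at or under the floor in most control libraries. Ngp held 10 counts in control beside 121539 in GFPpos (log2 fold change -13.50 ± 0.88, adjusted p = 3.02e-07). Without GFPpos replicate 1 the estimate for Ngp was -12.69. Intervals treat each count as independent, which low counts here are not, so they are too narrow even for counting error. They also leave out the spread between libraries.

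Camp and Lcn2 had a low level in control. Camp stood at 0.373, 0.4889 and 0.8505 CPM there (log2 fold change against GFPpos -8.38 ± 0.61, adjusted p = 3.26e-06 by edgeR's quasi-likelihood test) and Lcn2 at 0.1865, 0.3164 and 0.2984 CPM (-8.57 ± 0.59, adjusted p = 4.08e-07). Without GFPpos replicate 1 these estimates were -7.79 for each. Elane had 10, 6 and 4 counts in control (-9.09 ± 2.06, adjusted p = 0.00242, and -4.94 without GFPpos replicate 1, adjusted p = 0.00286) and Mpo 2, 6 and 2 (-11.73 ± 3.47, adjusted p = 0.0147). Mpo did not pass without GFPpos replicate 1 (-4.98, adjusted p = 0.0591) or without any 1 of the control libraries (adjusted p = 0.0513 to 0.0541). Ctsg had 2, 8 and 14 counts in control, within the range of GFPpos (-6.27 ± 2.38, adjusted p = 0.0427). Without GFPpos replicate 1 its estimate was 0.69 (adjusted p = 0.685), with the replicate number as a block -2.99 (adjusted p = 0.373), and without GFPneg replicate 3 or any control library its adjusted p was 0.0584 to 0.122. The groups of the other 9 members did not overlap, where 35.7% of all genes had control below GFPpos without overlap.

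Other neutrophil genes were lower as well, where 35.9% of all genes tested were called lower and 68.3% in either direction. Of the mature neutrophil genes 10 of 10 tested were lower in control than in GFPpos, with Retnlg, Il1b and Trem1 at 0 counts in all control libraries. Of the other secondary and tertiary granule genes 13 of 15 were lower, such as Chil3, with 123.6 ± 97.27 CPM in GFPpos and 0.01917 ± 0.03321 in control (log2 fold change -12.54 ± 0.93, adjusted p = 7.52e-07 by edgeR's quasi-likelihood test). Hp was also lower but had 488 ± 13.05 CPM in control. Of the primary granule partners 6 were lower and 2, Cd63 and Serpinb1a, higher. Ms4a3, a promyelocyte gene, and Nkg7, a granule membrane protein, were at 0 counts in control. Of the regulators 6 were lower and 1 higher, a share of called genes near the 68.3% over all genes. Spi1, Cebpe and Gfi1 were at 0 in control. Cebpa had 50.63 ± 2.846 CPM there and was not called (adjusted p = 0.138 by edgeR's quasi-likelihood test). The pan-haematopoietic markers summed to 14.52 to 15.92 CPM in control, with Ptprc and Rac2 at 0. Cd53, a tetraspanin of blood cells, made up 13.44 to 15.04 CPM of this sum, against 9.706 ± 8.992 CPM in GFPpos (0.57 ± 0.78, adjusted p = 0.529).

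Prtn3 was the exception among the members in culture. Its level was 8.126, 6.744 and 7.535 CPM in control, with 610, 469 and 505 counts. Every GFPpos library lay above every control library, but the difference did not pass (log2 fold change -1.63 ± 0.70, adjusted p = 0.0593 by edgeR's quasi-likelihood test). It passed with DESeq2 (adjusted p = 0.0271), with the 2 groups fitted alone (0.0453) and without GFPneg replicate 1, GFPneg replicate 2, GFPpos replicate 2 or GFPpos replicate 3 (0.0253 to 0.0381). Without GFPpos replicate 1 the estimate was -0.55 (adjusted p = 0.434). Per length, Prtn3 was the highest of the 10 in control (4.312 ± 0.4002 RPKM), followed by Camp (0.7531 ± 0.3286). Control libraries held 61.0, 78.2 and 126 counts of Prtn3 per count of Elane, the gene that lies 3072 bases further along chromosome 10.

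The gene model used for the Prtn3 counts may bear on these values. It is not known here beyond Ensembl release 77 in the extract protocol, and the reference models differ. In GENCODE M21 (GRCm38) Prtn3 spans chr10:79874476-79883174 on the plus strand and starts with an exon block at chr10:79874476-79874721, which overlaps the exons of Plppr3 on the minus strand by 159 bases. In RefSeq Prtn3 spans chr10:79879667-79883174, with no overlap. The library kit keeps no strand, so reads from the overlap cannot be told apart. Plppr3 was not found under its present symbol in the files. The symbol BC005764, neither placed nor named by the reference tables used here, was singled out after its values were seen. These tables do not settle whether it is another symbol of Plppr3, in which case the counts of both genes could share reads. It had 0.8788 ± 0.497 CPM in GFPneg and 69.58 ± 23.99 in GFPpos. The cultures had 174 ± 0.6582 CPM (control) and 6.142 ± 0.2821 CPM (rMSC). Prtn3 held 258 to 763 counts per 100 counts of BC005764 in GFPneg and 95, 16.2 and 12.2 in GFPpos. The same number was 3.88 to 4.65 for control libraries and 3.61 to 5.77 for rMSC libraries. In the cultures the ratio thus stayed in a narrow range while both genes differed between control and rMSC. Prtn3 counts per count of Elane were also high in GFPpos replicates 2 and 3 (3.92 and 3.56), against 0.314 in GFPpos replicate 1. Whether the Prtn3 counts of these libraries and of the cultures come from Prtn3 transcripts was not tested.

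**Figure D4:**
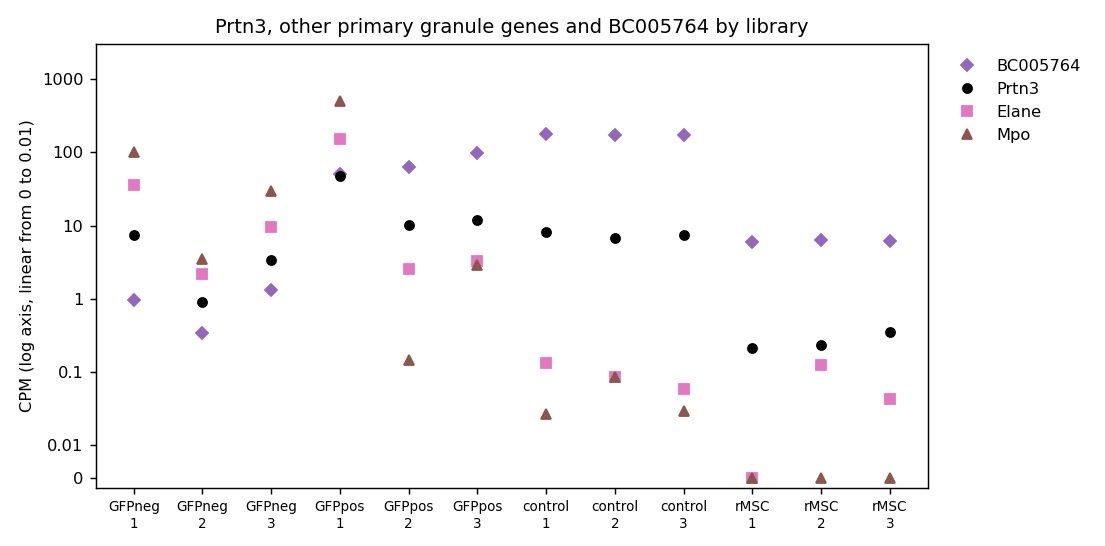
CPM (log axis, linear from 0 to 0.01) of Prtn3, Elane, Mpo and BC005764 in the 12 libraries. In the control libraries Prtn3 and BC005764 stand at means of 7.47 and 174 CPM while Elane and Mpo lie at 0.133 CPM or below, and in rMSC both lie lower.

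The comparison of rMSC with control asked what the 5 transduced genes changed in cultured stroma. By edgeR's quasi-likelihood test with Benjamini-Hochberg adjustment, 2 of the 10 members were called, Prtn3 and Camp, both lower in rMSC, against 25.5% of all genes called lower, 24.5% called higher and 50.1% called in either direction. Prtn3 had 0.2123, 0.2345 and 0.3526 CPM in rMSC (log2 fold change -4.79 ± 0.86, adjusted p = 0.000853), with all rMSC libraries below all control libraries. BC005764 had a like fold change (-4.82 ± 0.35, adjusted p = 1.44e-06). Camp had 28, 34 and 57 counts in control and 0 in each rMSC library (adjusted p = 0.00789), at least 12.39-fold higher in control with the floor of 3 counts set in each rMSC library. The groups did not overlap for Prtn3, Camp, Ctsg and Mpo, where 36.7% of all genes had rMSC below control without overlap. Ctsg had 2, 8 and 14 counts in control and 0 in each rMSC library, at least 2.537-fold, and was not called (adjusted p = 0.294). It passed with DESeq2 (adjusted p = 0.0236) and without GFPpos replicate 1 (adjusted p = 0.0387). That library is in neither culture group and enters this comparison only through the shared fit.

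Lcn2 was the 1 member with all rMSC libraries above all control libraries, where 35% of all genes were so placed. It had 0.7187, 0.594 and 0.5641 CPM in rMSC and 14, 22 and 20 counts in control beside 44, 38 and 40 in rMSC (log2 fold change 1.23 ± 0.65, adjusted p = 0.141 by edgeR's quasi-likelihood test). It passed with DESeq2 (adjusted p = 0.0174), with the 2 groups fitted alone (0.0217), and without GFPpos replicate 1 (0.00554). Mpo, Elane, Ngp, Ltf, S100a8 and S100a9 held at most 20 counts over the 3 libraries of either culture group, and no fold is given for them. The median log2 fold change of the 10 members was -0.51, against -0.01 over all genes. This median falls between the estimates of Elane and S100a9, both among these low-count members, so no shift is read from it.

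Genes around the granule proteins differed between the cultures in both directions. Over all genes tested, 24.5% were called higher in rMSC, 25.5% lower and 50.1% in either direction. Of the rest of the S100 family 6 were higher and 1 lower of 9 in rMSC, led by S100b (62.96 ± 1.83 against 2.667 ± 0.347 CPM), S100a4, a motility-linked member (725.4 ± 18.98 against 128 ± 7.051 CPM), and S100a1 (106.2 ± 4.597 against 25.97 ± 1.131 CPM). Of the stromal acute-phase genes 7 of 10 were lower, among them Cxcl5, a neutrophil attractant with 131.1 ± 3.331 CPM in control and 0 counts in rMSC, and Il6, the interleukin (0.07846 ± 0.07628 against 14.27 ± 0.8744 CPM). Hp had 1.633 ± 0.1761 CPM in rMSC against 488 ± 13.05 in control (log2 fold change -8.22 ± 0.56, adjusted p = 8.47e-07 by edgeR's quasi-likelihood test). Cebpa was lower (9.444 ± 0.6532 against 50.63 ± 2.846 CPM), while Lyz2, lysozyme (50.4 ± 1.009 against 3.879 ± 0.6474 CPM), and Ctsc (20.5 ± 0.1701 against 1.455 ± 0.5403 CPM) were higher. Of the 6 tested receptors 2 were higher and 2 lower, and the Lcn2 receptor Slc22a17 was among the lower (0.4029 ± 0.27 against 4.853 ± 1.15 CPM).

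Set against GFPpos, rMSC was lower for all 10 members by edgeR's quasi-likelihood test with Benjamini-Hochberg adjustment, against 38.2% of all genes called lower. The groups did not overlap for any member, where 37.9% of all genes had rMSC below GFPpos without overlap. Mpo, Camp and Ctsg were at 0 counts in every rMSC library, which puts GFPpos at least 3617-fold, 4089-fold and 195.7-fold higher with the floor of 3 counts in each library. Without GFPpos replicate 1 the bound was 33.47-fold for Mpo and 2733-fold for Camp, and Ctsg had 2 and 6 counts in the remaining GFPpos libraries, at or near the floor. Prtn3 differed by -6.42 ± 0.91 on the log2 scale (adjusted p = 7.76e-05, -5.34 without GFPpos replicate 1), Lcn2 by -7.34 ± 0.54 (adjusted p = 4.77e-07, -6.57 without it) and Elane by -9.82 ± 2.19 (adjusted p = 0.002, -5.67 without it). The call of Ctsg (adjusted p = 0.0148) was lost without GFPpos replicate 1 (adjusted p = 0.0652). This comparison shares its GFPpos libraries with the comparison of control and GFPpos.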

How the data were processed

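RNA from 12 libraries of 1000 to 5000 sorted cells was made into SMART-Seq v4 and Nextera XT libraries and read as 150 bp single ends, per the labels' protocols. The authors' deposited values are raw counts per gene, 1 file per library. The submitters' processing notes name STAR 2.4.1c, featureCounts 1.4.6 and mm10, and the extract protocol names Ensembl release 77. Of 24062 symbols, 27 turned into dates were left out. Groups came from the sample titles. Totals of 60507051 to 85353566 counts set the precision. Floors and intervals treat each count as independent and leave out the spread between libraries, and the kit adds no molecular identifiers.

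Counts were fitted in R 4.3.3 with edgeR 4.0.16 (TMM, filterByExpr, quasi-likelihood F-test, 4 groups over 12 libraries, 8 residual and 2.52 prior degrees of freedom), with Benjamini-Hochberg adjusted p under 0.05 over 15163 genes. Noisy fresh libraries and tight cultures share 1 estimate of the spread. The steps were checked on simulated data with the same spread in all groups, so the check does not cover the unequal spread of these groups. Log2 CPM used a prior count of 2. Positions and exon lengths came from GENCODE M21 and promoters from RefSeq GRCm38.p6. A fold between cultures is given where a group held over 20 counts, a rule set after values were seen. Tried as alternatives were DESeq2 1.42.0, upper-quartile or RLE factors, a filter of at least 50 counts in 3 libraries or none, fits on the 2 groups compared, a replicate block, each library left out in turn, replicate 1 of both fresh groups left out, and no length scaling.

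Named genes were all members, up to 3 genes of each list past the threshold with the largest absolute fold change (or, where none passed, up to 2 with the highest CPM), defining markers, and the 5 genes most like each profile. Other genes named with values were chosen after seeing them. The members and lists were chosen with earlier results of these data known.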

Additional observations from a re-analysis of the deposited data

How the results depend on the processing

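Of the estimates of single members under the alternatives, 174 of GFPpos minus GFPneg kept direction and side of the threshold, 10 passed where the reported value had not, 4 lost the call and 12 changed sign. For control minus GFPpos these numbers were 181, 6, 9 and 2. For rMSC minus GFPpos 196 kept both and 2 lost the call, and for rMSC minus control 72 kept both and 7 newly passed. In GFPpos minus GFPneg, log2 fold changes changed sign without GFPpos replicate 1 in Mpo (-4.86), Ctsg (-4.39), Elane (-2.44), Ltf (-0.48), Lcn2 (-0.21) and Ngp (-0.016), and without replicate 1 of both fresh groups in Ctsg (-3.48), Mpo (-3.41), Elane (-1.01), Ltf (-0.29) and Lcn2 (-0.077). In control minus GFPpos, Ctsg changed sign in the same alternatives, to 0.69 in each. With 1 library left out, the estimates in GFPpos minus GFPneg ranged from -4.86 to 3.36 for Mpo, -4.39 to 3.47 for Ctsg, -2.44 to 3.15 for Elane, -0.48 to 0.77 for Ltf, -0.21 to 0.85 for Lcn2 and -0.016 to 1.12 for Ngp, and in control minus GFPpos from -6.97 to 0.69 for Ctsg.

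The number of members called in GFPpos minus GFPneg was 2 as reported, 4 with RLE factors, 4 with upper-quartile factors, 1 without replicate 1 of both fresh groups, and 1 to 5 with 1 library left out. The calls added by RLE and upper-quartile factors were S100a8 (adjusted p = 0.0337 and 0.0329 by edgeR) and S100a9 (adjusted p = 0.0499 and 0.0489). Without GFPpos replicate 3, S100a8 (0.00379), S100a9 (0.00775) and Ngp (0.0272) were called as higher as well. In rMSC minus control it was 2 as reported, 4 with DESeq2, 4 without replicate 1 of both fresh groups, and 2 to 4 with 1 library left out. With 1 library left out it was 7 to 10 in control minus GFPpos and 9 to 10 in rMSC minus GFPpos. The primary genes' share of the summed member level in GFPneg was 2.39% per length and 4.93% without length scaling.

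Deviations from group means were correlated between same-numbered libraries. For GFPneg with GFPpos r was 0.1604, 0.1509 and 0.0174 in replicates 1, 2 and 3, and for all other pairs of groups -0.0249 to 0.0288. The numbers were not taken to pair the libraries in the main fit. Whether same-numbered fresh libraries came from the same sort is not given by the labels and was not tested. With the replicate number as a block, 3, 8, 2 and 10 members were called in GFPpos minus GFPneg, control minus GFPpos, rMSC minus control and rMSC minus GFPpos, where S100a8 gained its call in the first (adjusted p = 0.0434) and Ctsg lost it in the second (adjusted p = 0.373), and the estimate of Mpo in the first changed sign to -1.28 (adjusted p = 0.477 by edgeR). The causes of these shifts were not tested. Values at or under 3 counts in the cultures limit what can be read from Mpo, Ngp, Ltf, S100a8 and S100a9 there.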

Other observations

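Genes next to Ctsg in the granzyme and mast cell protease cluster of chromosome 14 were present in the control culture, where Ctsg itself held 24 counts in all. They were chosen after their values were seen. Gzme, a granzyme known from cytotoxic lymphocytes, had 13.76 ± 1.283 CPM in control (SD, n = 3), 0.05249 ± 0.03944 in rMSC, 0.0738 ± 0.07425 in GFPpos and 0 in GFPneg. Mcpt8, a basophil protease, had 3.308 ± 0.1353 CPM in control, 0.3158 ± 0.2537 in rMSC, 0.0165 ± 0.02858 in GFPpos and 0 in GFPneg.

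S100a7a, the gene before S100a8 on chromosome 3, had 4.953 ± 1.578 CPM in rMSC and 0.2936 ± 0.2128 in control, while S100a8 had at most 4 counts in any library of either culture. Cfd, complement factor D, the gene after Elane, had 7.223 ± 7.266 CPM in GFPpos and 0.04867 ± 0.06266 in control.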
